A study of Sus scrofa with 5 samples.

Results

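The tight junction and claudin genes described here were *CLDN3*, *CLDN4*, *CLDN6*, *CLDN7*, *CLDN10*, *OCLN*, *F11R*, *CGN* and *TJP1*, 9 genes chosen by name out of the 30029 genes in the count tables of porcine blastoids. The choice was made with earlier results of these data known. Member counts given below beside all-gene shares are therefore descriptions and not a test of the set. Blastoids are blastocyst-like structures that form from stem cells in culture. They were grown from porcine ESCs (pESCs) in iBlastoid medium, collected on day 6 and profiled as single cells in 2 libraries on the 10x Genomics platform. In the study's main process pESCs first formed clusters in another medium, 4FXY, before iBlastoid medium. Its single-cell methods do not name the process used. Both libraries had the same treatment and no altered genotype is given. In addition, 3 bulk RNA-seq libraries were made from pESCs, labelled pESC-1, pESC-2 and pESC-3, in 4FIXY medium. By the study's methods the pESCs came from parthenogenetic blastocysts, which carry maternal chromosomes alone, and grew on mouse embryonic fibroblast feeders. Only blastoids with a cavity and both compartments were picked, many structures were pooled in each library, and neither labels nor methods say whether the 2 libraries came from separate cultures. All p-values below therefore measure only the spread between 2 libraries, which may be technical.

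Tight junctions are belts of protein near the apical border of epithelial cells that close the space between neighbours. Their strands are built of claudins, whose combination sets which ions pass, together with occludin (*OCLN*) and the immunoglobulin adhesion protein JAM-A (*F11R*). On the cytoplasmic side a plaque with the scaffold protein ZO-1 (*TJP1*) and cingulin (*CGN*) ties the strands to actin. In the mammalian blastocyst the trophectoderm seals itself with such junctions, which allows the cavity to fill.

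In the pig genome (build Sscrofa11.1, RefSeq annotation), *CLDN3* (chr3:11019073-11020102, minus strand) and *CLDN4* (chr3:11039711-11053930, plus strand) lie next to each other on opposite strands, 19608 bases apart with 0 annotated genes between them. *CLDN6* is elsewhere on the same chromosome (chr3:39168506-39172631, plus strand), *CLDN7* is at chr12:52612517-52628376 on the minus strand and *CLDN10* at chr11:65027706-65145002 on the plus strand. *OCLN* (chr16:47600175-47652435, plus strand), *F11R* (chr4:89425101-89447889, plus strand), *CGN* (chr4:97704805-97730498, minus strand) and *TJP1* (chr1:144930387-145195857, minus strand) are not in clusters with the claudins.

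The 250 bases before the annotated start of the transcript with the highest FPKM in pESCs were read from the genome for 3 claudins, shown because their levels across cells differed in pattern, as described below. Capitals mark matches, on either strand, to the E-box CACCTG, the core bound by ZEB and SNAI repressors, or to GCCNNNGGC, the core bound by TFAP2 factors, and no matches overlapped in the windows shown.
CLDN7 (chr12:52614590-52614839, minus strand): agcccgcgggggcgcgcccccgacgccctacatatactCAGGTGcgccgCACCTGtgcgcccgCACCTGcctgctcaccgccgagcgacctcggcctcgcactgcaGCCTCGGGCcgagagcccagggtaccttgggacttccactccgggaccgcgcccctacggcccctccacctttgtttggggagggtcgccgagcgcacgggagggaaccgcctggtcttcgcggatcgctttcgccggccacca
CLDN3 (chr3:11020103-11020352, minus strand): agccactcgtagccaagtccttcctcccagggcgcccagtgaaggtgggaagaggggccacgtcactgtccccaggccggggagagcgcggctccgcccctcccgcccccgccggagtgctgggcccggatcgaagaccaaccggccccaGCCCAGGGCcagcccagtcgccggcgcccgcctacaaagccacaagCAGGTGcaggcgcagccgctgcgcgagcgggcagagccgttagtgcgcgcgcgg
CLDN10 (chr11:65121377-65121626, plus strand): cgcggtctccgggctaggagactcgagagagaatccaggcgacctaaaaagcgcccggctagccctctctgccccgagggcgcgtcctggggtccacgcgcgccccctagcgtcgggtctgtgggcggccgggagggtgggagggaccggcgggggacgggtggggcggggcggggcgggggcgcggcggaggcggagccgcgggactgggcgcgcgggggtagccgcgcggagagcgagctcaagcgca
The *CLDN7* window had 3 E-boxes, at 212, 201 and 187 bases before the start, and the *CLDN3* window had 1, at 54 bases. The *CLDN10* window was 77.6% G and C and had no match to any motif searched. Over the 9 members, 4 had an E-box (*F11R*, *CGN*, *CLDN3* and *CLDN7*), against 19.4% of 19531 windows of all genes, and 3 had the TFAP2 core (*CGN*, *CLDN3* and *CLDN7*), against 23.2%. The TEAD core GGAATG was in 1 member window (*F11R*), against 9.87% of all. The GRHL motif AACCNGTT (1.39% of all windows) and the octamer ATTTGCAT (1.21%), which POU factors bind, were in 0 of 9. A match is a run of letters and not a measured binding site.

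Cells were taken as barcodes with at least 11223 unique molecular identifiers (UMIs, each standing for 1 captured RNA molecule) in library 1 and 9805 in library 2, which gave 7369 and 8175 cells with a median of 29728 and 27588 UMIs. The libraries shared 9 of their barcodes. Cells were then sorted in silico by 5 gate genes: *POU5F1*, a pluripotency factor of the epiblast, *CRABP1*, a retinoid binding protein of neural cells, *GABRP*, a receptor subunit found in amnion and trophectoderm, *TP63*, a basal epithelial factor, and *COL3A1*, a mesenchymal collagen. A cell entered a gate when it had at least 3 UMIs of that gene, at a level at least 2 times that of empty droplets, and met this for no other gate gene. In libraries 1 and 2 this held for 837 and 966 cells for *POU5F1*, 228 and 345 for *CRABP1*, 767 and 746 for *GABRP*, 1141 and 1142 for *TP63*, and 572 and 487 for *COL3A1*. Together these were 7231 of 15544 cells. A further 2909 and 3638 cells passed no gate, and 915 and 851 passed several. The *POU5F1* gate was the deepest, with medians of 38194 and 34426.5 UMIs a cell, and the *COL3A1* gate the shallowest, with 22366.5 and 20037.

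Marker lists of the matching cell types were highest in 4 of the 5 gates and did not set the fifth apart. The 8 pluripotent markers summed to 531 and 755 CPM (UMIs of a gene scaled to a total of 1e+06) in the *POU5F1* gate in libraries 1 and 2, against 48.8 to 213 in the others, although *NANOG* was low at a mean of 5.3 CPM. Neural markers summed to 1108 and 1193 CPM in the *CRABP1* gate (122 to 473 elsewhere), and that gate was also highest in neural crest markers, at 239 and 209 CPM. Mesenchyme markers summed to 3693 and 3578 CPM in the *COL3A1* gate (43.0 to 792 elsewhere), which also led in hypoblast markers, at 487 and 489 CPM, and in endothelial markers, at 162 and 165 CPM (38.0 to 62.7 elsewhere), although the defining endothelial genes *CDH5* and *PECAM1* were at means of 0.16 and 1.7 CPM. Trophectoderm markers (16585 and 17498 CPM, against 3226 to 8802) and amnion markers (1617 and 1657 CPM, against 123 to 717) were highest in the *GABRP* gate. The trophectoderm list holds *CDX2*, which went the other way and was higher in the *COL3A1* gate, as given below. The amnion list holds *GABRP* itself, and without it the other 7 genes summed to 780 and 781 CPM in the *GABRP* gate, against 104 to 622. In the *TP63* gate surface ectoderm markers reached 414 and 395 CPM, but the *GABRP* gate had up to 398 and the basal keratin *KRT5* was near 0, so that gate is called by its gene alone.

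The gates differed in their levels of the 9 genes. *OCLN*, *CGN*, *CLDN3*, *CLDN4*, *CLDN7* and *CLDN10* were higher by test in the *GABRP*, *POU5F1* and *TP63* gates than in the *CRABP1* gate. For *CLDN4* the difference between *POU5F1* and *CRABP1* did not pass without library 1 of either gate. Of the 9 members, 8 had their lowest mean in the *COL3A1* gate. *CLDN10* was the exception, with its lowest mean in the *CRABP1* gate and a level in the *POU5F1* gate several times that of any other. Its place in the *CRABP1* gate below the *COL3A1* gate did not pass the test without predicted doublets. That order turned with gates at 1 times the empty-droplet level. UMI counts were summed over the cells of each gate in each library, giving 10 sums, and levels are CPM of these sums. Since the chemistry counts transcript ends, CPM values are not divided by gene length and are compared between gates, not between genes.

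**Figure D1:**
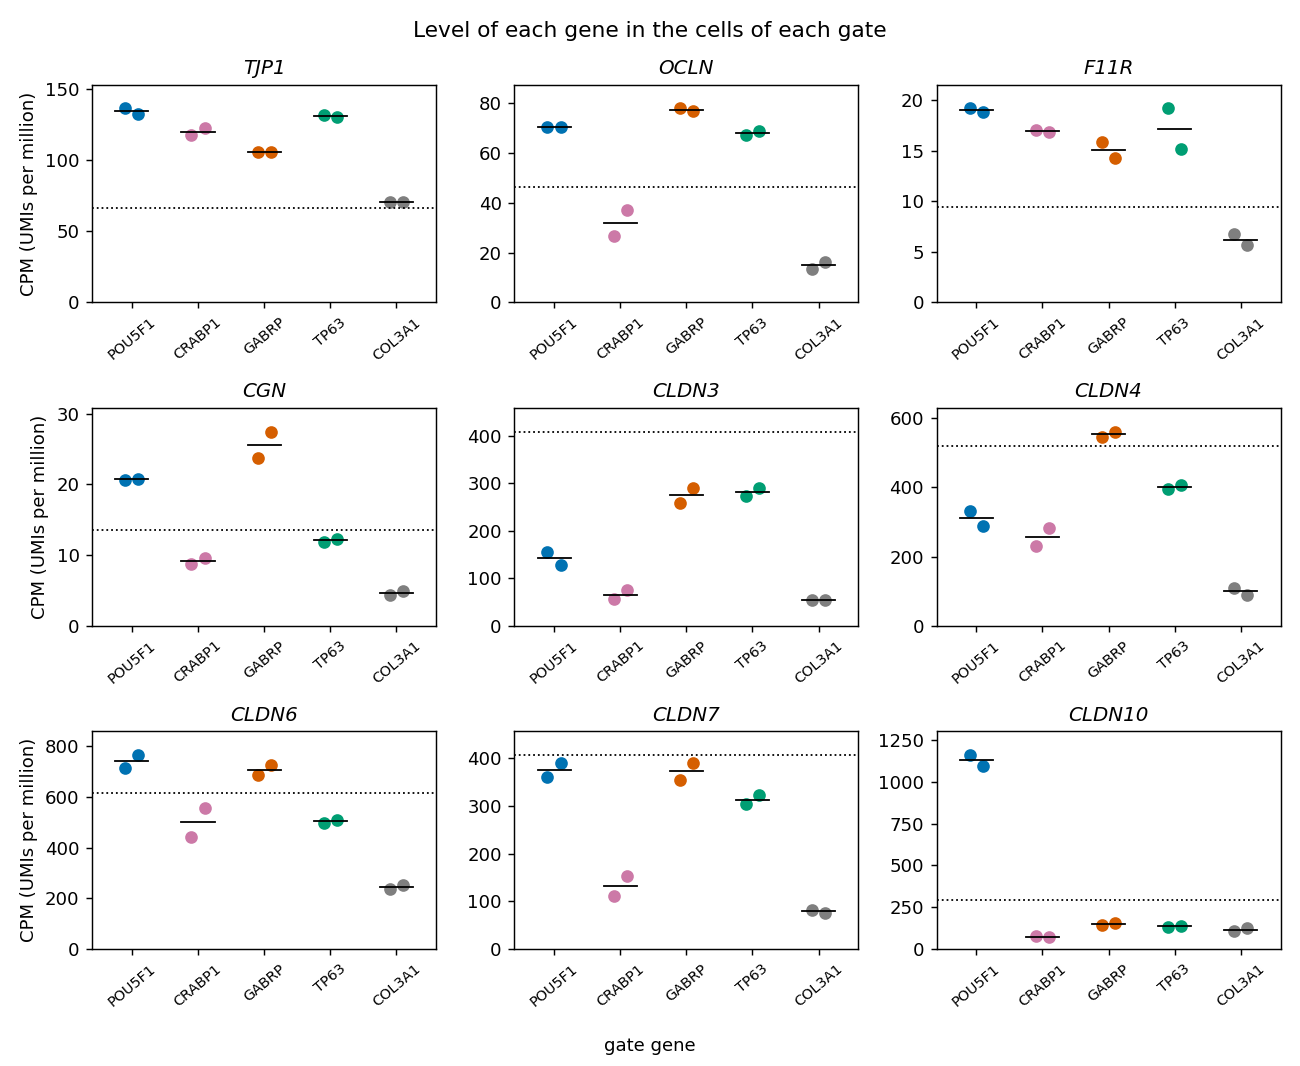
Level of each of the 9 genes in CPM in each gate, with 1 point per library, a bar at their mean and a dotted line at the mean level in empty droplets. *CLDN10* stands at 1094 and 1162 CPM in the *POU5F1* gate and at 158 or less in the other 4, and for most genes the *COL3A1* gate is lowest.

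*CLDN10*, a claudin that forms ion-selective pores, was at 1162 CPM in library 1 and 1094 in library 2 of the *POU5F1* gate. It was at 144 and 158 CPM in the *GABRP* gate, 134 and 139 in the *TP63* gate, 108 and 125 in the *COL3A1* gate and 79.3 and 70.3 in the *CRABP1* gate. The *POU5F1* values thus did not overlap with any other gate. Against the mean of the other 4 gates the log2 fold change was 3.22 ± 0.05 (SE; edgeR quasi-likelihood, adjusted p = 1.08e-11), a 9.33-fold higher level. Against the next gate, *GABRP*, it was 2.69 ± 0.08 (edgeR, adjusted p = 6.34e-10). Down the order of mean levels, *TP63* and *COL3A1* were neighbours that did not pass the test (log2 difference 0.18 ± 0.08, edgeR adjusted p = 0.0857; 0.0410 with library as a replicate block). That step was called, with *TP63* the higher, without predicted doublets (1.04, adjusted p = 8.29e-05) and without *COL3A1* library 2 (0.30, adjusted p = 0.0197).

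Within the *POU5F1* gate *CLDN10* varied widely between cells. In library 1 the 10th percentile, median and 90th percentile were 68.3, 1044 and 2515 CPM, and in library 2 they were 61.6, 872 and 2602 CPM, with 2.63% and 3.21% of cells at 0. In the *CRABP1* gate the median cell was at 0 in both libraries. Among cells that passed no gate, *CLDN10* summed to 244 and 378 CPM, with a 90th percentile of 596 and 1039 CPM, so some cells outside the *POU5F1* gate reached levels typical of those in it.

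*CLDN3* and *CLDN4*, neighbours in the genome and both sealing claudins of simple epithelia, were highest in the *GABRP* and *TP63* gates. *CLDN3* was at 259 and 290 CPM in the *GABRP* gate, 274 and 290 in the *TP63* gate, 156 and 128 in the *POU5F1* gate, 55.4 and 75.8 in the *CRABP1* gate and 53.9 and 54.7 in the *COL3A1* gate. Its *GABRP* and *TP63* values overlapped (edgeR, adjusted p = 0.486), and those of *CRABP1* and *COL3A1* did not pass the test either (edgeR, adjusted p = 0.739). *CLDN4* was at 545 and 561 CPM in the *GABRP* gate, 394 and 406 in the *TP63* gate, 331 and 290 in the *POU5F1* gate, 230 and 282 in the *CRABP1* gate and 108 and 90.2 in the *COL3A1* gate. For *CLDN4* each step down this order passed the test. The step from *POU5F1* to *CRABP1* lost its call without library 1 of either gate (log2 difference 0.29 without *POU5F1* library 1 and 0.21 without *CRABP1* library 1). In the *CRABP1* gate *CLDN4* was unevenly spread over cells, with a median of 52.9 and 96.2 CPM and a 90th percentile of 704 and 768 CPM.

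*CLDN6*, a claudin of early embryonic epithelia, and *CLDN7*, which binds the adhesion protein EPCAM, did not differ by test between the *POU5F1* and *GABRP* gates. *CLDN6* was at 714 and 767 CPM in the *POU5F1* gate and 689 and 725 in the *GABRP* gate (edgeR, adjusted p = 0.230), then at 497 and 510 in the *TP63* gate and 443 and 556 in the *CRABP1* gate (edgeR, adjusted p = 0.185; called with library as a replicate block, adjusted p = 0.0315). In the *COL3A1* gate it was still at 238 and 253 CPM. *CLDN7* was at 360 and 389 CPM in the *POU5F1* gate, 354 and 390 in the *GABRP* gate and 303 and 322 in the *TP63* gate. It fell to 111 and 153 CPM in the *CRABP1* gate and 82.7 and 75.5 in the *COL3A1* gate. The *CLDN7* values of *POU5F1* and *GABRP* overlapped (edgeR, adjusted p = 0.173). *POU5F1* and *TP63* did not pass the test for *CLDN7* either (log2 difference 0.21 ± 0.12, edgeR adjusted p = 0.173). The called steps from *GABRP* to *TP63* and from *CRABP1* to *COL3A1* were each lost when 1 library was left out: the first at log2 0.33 without *GABRP* library 2, 0.37 without *TP63* library 1 and 0.47 without *TP63* library 2, the second at 0.26 without *CRABP1* library 2 and 0.48 without *COL3A1* library 2.

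*OCLN*, the 4-pass membrane protein that joins claudins in the strands, was at 70.3 and 70.4 CPM in the *POU5F1* gate, 77.8 and 76.6 in the *GABRP* gate and 67.2 and 68.6 in the *TP63* gate. It was lower in the *CRABP1* gate, at 26.4 and 36.9 CPM, and lowest in the *COL3A1* gate, at 13.6 and 16.3. The step from *POU5F1* to *TP63* did not pass the test (log2 difference 0.00 ± 0.10, edgeR adjusted p = 0.984). *F11R*, which supports the first contacts between polarising cells, spanned a narrow range of 14.3 to 19.2 CPM in 4 gates. It was at 6.80 and 5.64 CPM in the *COL3A1* gate, and none of the neighbouring steps among the other 4 gates passed the test (edgeR, adjusted p from 0.293 to 0.489).

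The plaque genes differed from each other. *CGN* was at 23.7 and 27.5 CPM in the *GABRP* gate, 20.7 and 20.8 in the *POU5F1* gate, 11.9 and 12.3 in the *TP63* gate, 8.70 and 9.63 in the *CRABP1* gate and 4.41 and 4.93 in the *COL3A1* gate, with no overlap between gates and every step called. *TJP1* varied least of the 9. It was at 136 and 132 CPM in the *POU5F1* gate, 132 and 130 in the *TP63* gate, 117 and 122 in the *CRABP1* gate, 106 and 106 in the *GABRP* gate and 70.6 and 70.6 in the *COL3A1* gate. For *TJP1* the step from *POU5F1* to *TP63* did not pass the test (edgeR, adjusted p = 0.838). The order of *CRABP1* and *GABRP* depended on the scale. In CPM *CRABP1* was the higher without overlap, and so it was in the test with library totals (log2 0.18, adjusted p = 0.0150). With the TMM scaling used for the tests below it was at -0.14, *CRABP1* being the lower (adjusted p = 0.0684; 0.0294 with library as a replicate block).

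Tests were run on all 17826 genes that passed the filter on low counts, all 9 members among them, with TMM scaling, which sets the bulk of genes to no change. Scaling to library totals instead moved the median of all genes to a log2 value of 0.19 in the *CRABP1* gate and -0.24 in the *GABRP* gate, from -0.02 and -0.04, so fold changes involving those gates depend on the scale. With totals only, calls in the *CRABP1* gate went from 3570 higher and 3856 lower genes to 6240 and 2144, and in the *GABRP* gate from 4673 and 4550 to 3127 and 7515.

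In the *POU5F1* gate 7 of 9 members were higher than in the mean of the other gates and 0 were lower, where 27.1% of all genes were called higher and 26.2% lower. Beside *CLDN10*, the higher members were *CLDN7* (log2 0.94 ± 0.09, adjusted p = 4.24e-06), *CGN* (0.89 ± 0.08), *OCLN* (0.76 ± 0.08), *CLDN6* (0.63 ± 0.07), *F11R* (0.50 ± 0.09) and *TJP1* (0.31 ± 0.04). *CLDN4* (0.11, adjusted p = 0.277) and *CLDN3* (0.07, adjusted p = 0.562) did not pass, but this depended on the setting. Both passed as higher without predicted doublets (*CLDN3* 0.32, adjusted p = 0.00708; *CLDN4* 0.29, adjusted p = 0.0143) and with gates at 1 times the empty-droplet level (0.26 and 0.25), and *CLDN3* also with free RNA taken off (0.53, adjusted p = 0.0139). *CLDN3* was at -0.07 and not called without *POU5F1* library 1. The median over the 9 members was 0.63, beside -0.01 over all genes.

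In the *GABRP* gate 8 of 9 members were higher and 0 lower, where 26.2% of all genes were called higher and 25.5% lower. The largest differences were those of *CLDN3* (log2 1.53 ± 0.09, adjusted p = 4.57e-08), *CGN* (1.53 ± 0.08) and *CLDN4* (1.42 ± 0.08). *OCLN* (1.19 ± 0.08), *CLDN7* (1.19 ± 0.09) and *CLDN6* (0.81 ± 0.07) followed. *F11R* (0.35 ± 0.10, adjusted p = 0.00925) and *TJP1* (0.14 ± 0.05, adjusted p = 0.0254) were small and depended on the scale, at 0.15 and -0.06 with library totals, neither called. In pairs of gates both were called higher in the *GABRP* gate only against the *COL3A1* gate, which is part of the mean. For *F11R* this also held in the *POU5F1* and *TP63* gates. *F11R* also lost its call without *GABRP* library 1 (0.31), and *TJP1* without *GABRP* library 1 (0.17) or 2 (0.13). *CLDN10* was at -0.14 (adjusted p = 0.0979; 0.0497 with library as a replicate block). It was called lower with library totals (-0.34, adjusted p = 0.00067) and was at 0.092 without predicted doublets. The member median was 1.19, beside -0.04 over all genes.

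In the *TP63* gate 6 members were higher and 1 lower, where 20.4% of all genes were called higher and 19.3% lower. *CLDN3* led at log2 1.38 ± 0.09 (adjusted p = 2.79e-07), before *OCLN* (0.76 ± 0.08), *CLDN7* (0.68 ± 0.09), *CLDN4* (0.64 ± 0.08), *F11R* (0.38 ± 0.09) and *TJP1* (0.33 ± 0.04). The *F11R* call was lost without *TP63* library 1 (0.22), a setting in which all-gene calls fell from 7077 to 4492. *CLDN10* was lower (-0.52 ± 0.07, adjusted p = 6.12e-05), though not when predicted doublets were removed (-0.24, adjusted p = 0.112). In pairs of gates, *CLDN10* was higher in the *POU5F1* (log2 2.99) and *GABRP* (0.30) gates than in the *TP63* gate. It was lower in the *CRABP1* gate than in the *TP63* gate (-1.04), so the lower call depends on the *POU5F1* gate, which is part of the mean. *CGN* (-0.02) and *CLDN6* (0.00) did not pass. The member median was 0.38, beside 0.00 over all genes.

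In the *CRABP1* gate 7 members were lower and 0 higher, where 20.0% of all genes were called higher and 21.6% lower. *CLDN10* (log2 -1.82 ± 0.08, adjusted p = 4.88e-09), *CLDN3* (-1.44 ± 0.12), *CLDN7* (-1.07 ± 0.11), *OCLN* (-0.79 ± 0.11) and *CGN* (-0.72 ± 0.12) were called under library totals as well. The calls of *CLDN4* (-0.37 ± 0.09, adjusted p = 0.00534) and *CLDN6* (-0.22 ± 0.08, adjusted p = 0.0482) were not stable. *CLDN4* lost its call without *CRABP1* library 1 (-0.21) and with library totals (-0.16). *CLDN6* lost it under most alternatives, among them leaving out *CRABP1* library 1 (-0.04). *F11R* (0.15, adjusted p = 0.346) and *TJP1* (-0.04, adjusted p = 0.536) did not pass, but with library totals both were called higher (*F11R* 0.35, adjusted p = 0.0339; *TJP1* 0.16, adjusted p = 0.0110). With gates at 1 times the empty-droplet level *CLDN4* (0.02), *CLDN6* (0.02) and *CGN* (-0.26) lost their calls. The member median was -0.72, beside -0.02 over all genes.

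In the *COL3A1* gate all 9 members were lower, where 25.8% of all genes were called higher and 22.9% lower, and all 9 calls stood with each single sum left out. The differences ran from *OCLN* (log2 -1.92 ± 0.11, adjusted p = 3.79e-08), *CLDN4* (-1.81 ± 0.10), *CLDN7* (-1.73 ± 0.11) and *CGN* (-1.68 ± 0.12) through *CLDN3* (-1.53 ± 0.12), *F11R* (-1.37 ± 0.12) and *CLDN6* (-1.23 ± 0.09) to *CLDN10* (-0.75 ± 0.07) and *TJP1* (-0.73 ± 0.05). For *CLDN10* the mean of the other gates again includes the high *POU5F1* gate. In pairs, *CLDN10* was higher in the *POU5F1* (log2 3.17) and *GABRP* (0.49) gates than in the *COL3A1* gate. The *TP63* gate did not differ by test, and the *CRABP1* gate was lower (-0.86). The member median was -1.53, beside 0.00 over all genes.

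**Figure D2:**
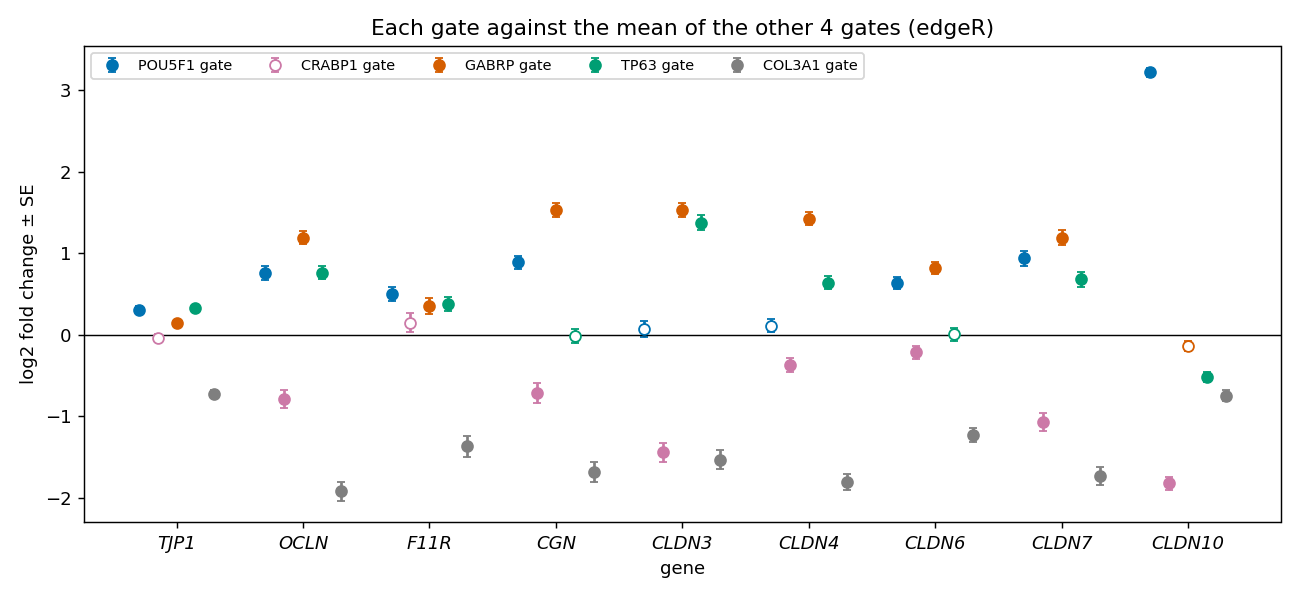
Log2 fold change of each of the 9 genes in each gate against the mean of the other 4 gates, with standard errors (filled points, adjusted p under 0.05). The *CLDN10* value in the *POU5F1* gate (3.22) is the highest, and all 9 values in the *COL3A1* gate lie below 0.

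Free RNA that gives UMIs in any cell was measured in droplets with 10 to 100 UMIs, taken as empty. There *CLDN3* was at 409 CPM, *CLDN4* at 521, *CLDN6* at 614, *CLDN7* at 407 and *CLDN10* at 296 (means of 2 libraries). As a percent of its empty-droplet level, *CLDN3* was at 13.5% and 13.1% in the *COL3A1* gate in libraries 1 and 2, *CLDN4* at 21.1% and 17.1%, and *CLDN7* at 21.8% and 17.4%. *OCLN* was at 31.4% and 33.2%, *CGN* at 36.1% and 33.0%, *CLDN10* at 39.1% and 39.7%, *CLDN6* at 39.3% and 40.6%, and *F11R* at 65.6% and 66.1%. *TJP1*, at 103% and 110%, was the 1 member above its empty-droplet level there. Levels below those of empty droplets were not particular to this gate. *CLDN3* was at means of 34.9%, 16.0%, 67.2% and 69.0% in the *POU5F1*, *CRABP1*, *GABRP* and *TP63* gates. *CLDN7* was at 92.2%, 32.3%, 91.6% and 77.0% in the same order, whereas *TJP1* and *F11R* were above their empty-droplet level in each of these gates. In the *COL3A1* gate the other gate genes, cells positive for which were left out, were at 6.26% to 22.4% of their empty-droplet levels. The part of free RNA in the levels of the members was not tested. With predicted doublets removed, *CLDN10* in the *COL3A1* gate fell from 108 and 125 CPM to 71.8 and 45.4, and *CLDN4* from 108 and 90.2 to 62.7 and 45.1, while *TJP1* went from 70.6 and 70.6 to 60.9 and 62.2. The contrast of *CLDN10* with the other gates then grew from -0.75 to -1.55.

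**Figure D3:**
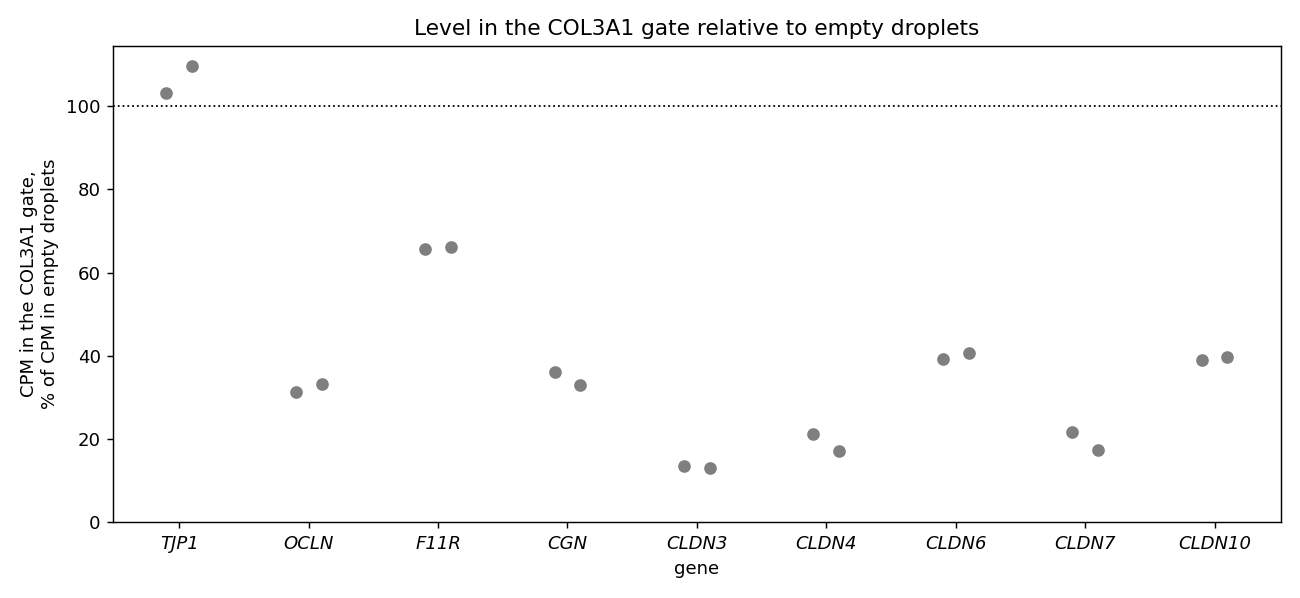
Level of each of the 9 genes in the *COL3A1* gate as a percent of its level in empty droplets, 1 point per library, with a dotted line at 100%. *CLDN3* is lowest at 13.5% and 13.1%, and *TJP1* is at 103% and 110%.

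Between pairs of gates, the members were called in 72 of 90 comparisons. All 9 were higher in the *POU5F1* gate than in the *COL3A1* gate (53.7% of all genes were called in either direction) and all 9 were higher in the *GABRP* gate than in the *COL3A1* gate (52.0%). In the *TP63* gate 8 were higher than in the *COL3A1* gate and 0 lower (48.1%), *CLDN10* being the gene not called. The *POU5F1* gate had 8 members higher than the *CRABP1* gate and 0 lower (43.8%). Against the *CRABP1* gate 7 were higher in the *GABRP* gate (51.3%) and 7 in the *TP63* gate (40.7%), with 0 lower in each. The *CRABP1* gate exceeded the *COL3A1* gate for 7 members and was below it for *CLDN10* (38.7%), where the log2 difference of -0.86 ± 0.09 became -0.31 and lost its call without predicted doublets, and turned to 0.29 (adjusted p = 0.0357) with gates at 1 times the empty-droplet level.

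Among the 3 gates rich in claudins fewer members were called than in the other pairs. With *POU5F1* against *GABRP* and against *TP63*, 5 of 9 members were called each time, close to the all-gene shares of 55.5% and 50.6%. With *GABRP* against *TP63*, 6 of 9 were called, above the all-gene share of 31.0%. The *POU5F1* gate was above the *GABRP* gate for *CLDN10* and below it for 4 members (55.5% of all genes called). It was above the *TP63* gate for 3 members and below it for 2 (50.6%). The *GABRP* gate was above the *TP63* gate for 6 members and below it for 0 (31.0%). Beside the call of *CLDN7* described above, that of *CLDN10* (log2 0.30 ± 0.08) was lost without *GABRP* library 2 (0.22), without *TP63* library 1 (0.28) and with library totals (0.15). Single members were followed through the alternatives in 36 of the 90 comparisons, those between neighbours in the order of mean levels. The *GABRP* against *TP63* calls of *OCLN* (0.34 ± 0.10, edgeR adjusted p = 0.0259) and *CGN* were not among these.

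The share of cells with at least 1 UMI of a gene was compared after thinning every cell to 9805 UMIs, since the gates differed in depth. *CLDN10* was then seen in 89.2% ± 0.886 of cells in the *POU5F1* gate (SD, n = 2 libraries; 97.1% unthinned), 50.6% in the *TP63* gate, 47.9% in the *GABRP* gate, 27.2% in the *CRABP1* gate and 20.2% ± 3.20 in the *COL3A1* gate (33.4% unthinned). *CLDN6* was seen in 99.5%, 97.8%, 98.6%, 90.9% and 74.3% of cells in the same order. *CLDN7* was seen in 95.7% of *POU5F1* cells, 45.7% of *CRABP1* cells and 21.9% of *COL3A1* cells, and *CLDN3* in 89.9% of *TP63* cells and 16.9% of *COL3A1* cells. *CLDN4* was seen in 97.5% of *GABRP* cells and 30.3% of *COL3A1* cells. Free RNA alone also gives UMIs, and its part in these shares was not tested. A cell held 5.85 ± 0.102 of the 9 genes in the *POU5F1* gate, 5.68 ± 0.0565 in the *GABRP* gate and 5.68 ± 0.0142 in the *TP63* gate, against 3.57 ± 0.301 in the *CRABP1* gate and 2.2 ± 0.14 in the *COL3A1* gate (SD, n = 2; unthinned means 7.60, 7.14, 7.21, 5.00 and 3.30).

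The *POU5F1* gate held cells with and without *GATA3*, a transcription factor of trophectoderm and amnion. There were 289 and 224 *GATA3*-positive cells in libraries 1 and 2 and 548 and 742 negative ones, with medians of 35652 and 30403 against 40118 and 35113.5 UMIs. In the positive cells 5 of 9 members were higher and 0 lower, where 10.5% of 15842 genes tested were called higher and 10.3% lower. *CLDN4* was at 442 and 454 CPM in positive cells and 276 and 244 in negative cells (log2 0.84 ± 0.07, edgeR adjusted p = 0.000232). *CLDN10* rose further, to 1454 and 1755 CPM from 1016 and 910 (0.79 ± 0.10, adjusted p = 0.00100). The groups did not overlap for either gene. *CGN* (0.63 ± 0.11, adjusted p = 0.00431) and *CLDN3* (0.63 ± 0.09, adjusted p = 0.00254) were also higher, and *OCLN* less so (0.31 ± 0.08, adjusted p = 0.0278), a call lost without the *GATA3*-positive library 2 sum (0.24) or either *GATA3*-negative sum (0.29 and 0.32). *TJP1*, *CLDN7*, *CLDN6* and *F11R* did not pass. With library as a replicate block 8 members were called, with *TJP1* (0.19, adjusted p = 0.0251) and *CLDN7* (0.16, adjusted p = 0.0162) higher and *CLDN6* (-0.18, adjusted p = 0.00514) lower. *CLDN6* was also called lower with library totals (-0.24, adjusted p = 0.0207), where all-gene calls were 1384 higher and 1989 lower instead of 1669 and 1630, and without the *GATA3*-negative library 1 sum (-0.24, adjusted p = 0.0384). All-gene calls went from 3299 to 2168 without the *GATA3*-negative library 2 sum. The size of the positive group depended strongly on the threshold, which was moved for *POU5F1* and *GATA3* together. At 4 times the empty-droplet level 26 and 12 cells were *GATA3*-positive in libraries 1 and 2, and at 1 times 584 and 660.

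The *GABRP* gate was split in the same way by *TAC3*, a neuropeptide gene, into 255 and 235 positive and 512 and 511 negative cells, with medians of 26021 and 23058 against 27918.5 and 24594 UMIs. *CLDN6* was at 788 and 822 CPM in positive and 638 and 683 in negative cells, without overlap (log2 0.35 ± 0.06, edgeR adjusted p = 0.00754; 0.29 and not called without the *TAC3*-negative library 1 sum). It was the 1 member called, where 5.17% of 14573 genes were called higher and 2.97% lower. *CLDN3* was at -0.25 (adjusted p = 0.0928) and *OCLN* at 0.20 (adjusted p = 0.206). With library as a replicate block 3 members were called, with *CLDN3* lower (-0.25, adjusted p = 0.00311) and *CLDN4* higher (0.15, adjusted p = 0.0443), and all-gene calls rose from 1186 to 2122. With *CLDN3* the call also appeared without the *TAC3*-positive library 2 sum (-0.33, adjusted p = 0.0183) or the *TAC3*-negative library 1 sum (-0.34, adjusted p = 0.0480). The all-gene split of 753 higher and 433 lower became 565 and 603 with library totals.

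**Figure D4:**
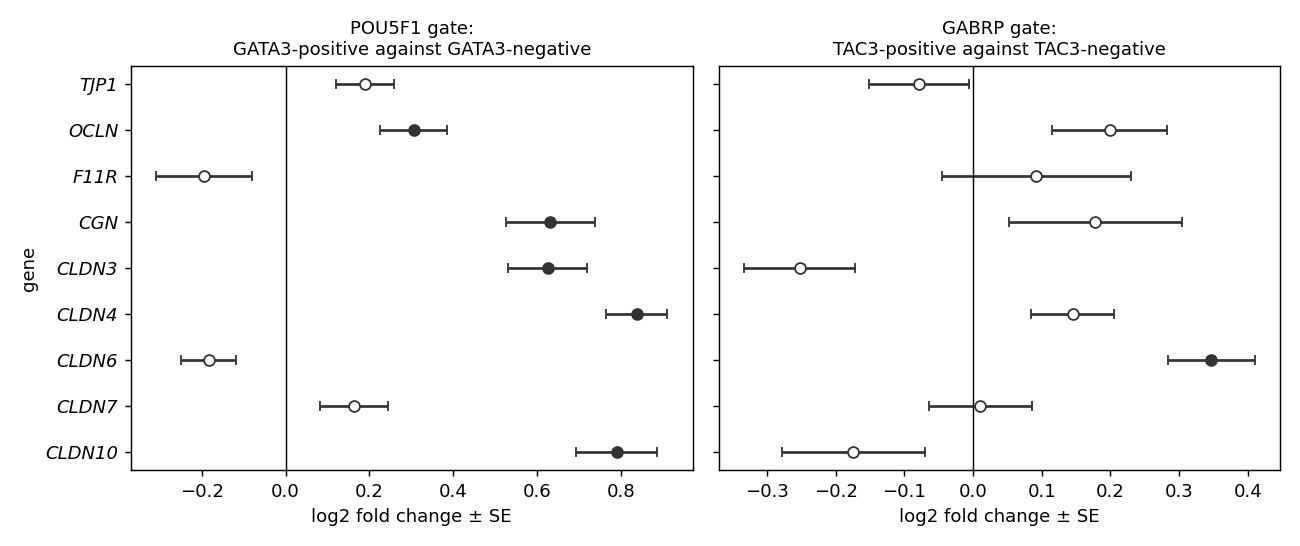
Log2 fold change with standard error of the 9 genes in *GATA3*-positive against *GATA3*-negative cells of the *POU5F1* gate (left) and in *TAC3*-positive against *TAC3*-negative cells of the *GABRP* gate (right), filled where the adjusted p was under 0.05. *CLDN4* (0.84) and *CLDN10* (0.79) lead on the left, and *CLDN6* (0.35) is the filled point on the right.

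Of 18 other claudins, 17 were in the tables and 7 had enough counts to test. In the *POU5F1* gate 4 were higher and 1 lower (*CLDN12*, log2 -0.51 ± 0.10), and in the *COL3A1* gate 1 was higher and 4 lower. Over all genes the called shares were 27.1% higher and 26.2% lower in the *POU5F1* gate, 25.8% and 22.9% in the *COL3A1* gate, 20.4% and 19.3% in the *TP63* gate, 26.2% and 25.5% in the *GABRP* gate, and 20.0% and 21.6% in the *CRABP1* gate, and these hold beside the counts of the lists that follow. *CLDN9*, a close relative of *CLDN6*, was at 66.5 and 82.1 CPM in the *POU5F1* gate and 26.3 and 32.5 in the *GABRP* gate (log2 1.95 ± 0.12 in the *POU5F1* gate against the mean of the others). *CLDN1*, a claudin of the epidermal barrier, was higher in the *GABRP* (2.54 ± 0.11) and *TP63* (1.96 ± 0.11) gates and in *GATA3*-positive cells (1.65 ± 0.13), and lower in the *CRABP1* (-2.43 ± 0.20) and *COL3A1* (-1.99 ± 0.18) gates. *CLDN15* was higher in the *COL3A1* gate (1.38 ± 0.35).

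Among 11 other membrane proteins of the junction, 7 were higher and 2 lower in the *POU5F1* gate, and 1 was higher and 7 lower in the *COL3A1* gate. *IGSF5*, which encodes JAM4, was higher in the *POU5F1* gate (log2 3.60 ± 0.20) at only 10.8 and 12.7 CPM, and it was also higher in *GATA3*-positive cells (1.05 ± 0.18). *JAM2*, a junction protein of endothelial and mesenchymal cells, went the other way, higher in the *CRABP1* (2.67 ± 0.17) and *COL3A1* (2.31 ± 0.17) gates and lower in the *GABRP* gate (-2.38 ± 0.25). The tricellular junction genes *MARVELD2* (-1.70 ± 0.07) and *ILDR1* (-1.75 ± 0.14) and the occludin relative *MARVELD3* (-1.96 ± 0.16) were lower in the *COL3A1* gate.

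The 27 other plaque genes were divided, with 9 higher and 11 lower in the *COL3A1* gate, 9 and 11 in the *POU5F1* gate, and 17 and 6 in the *TP63* gate. *CGNL1*, the cingulin paralog, was higher in the *COL3A1* gate (log2 2.46 ± 0.06, 153 and 159 CPM) and lower in the *POU5F1* gate (-1.63 ± 0.07), whereas *CGN* itself had the opposite signs. The scaffold gene *TJP3* was lower in the *COL3A1* gate (-1.99 ± 0.14) and higher in the *GABRP* gate (1.58 ± 0.09).

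Of the claudin partners and membrane proteases, a list of 6, all 6 were higher in the *GABRP* and *TP63* gates and lower in the *CRABP1* and *COL3A1* gates. In the *POU5F1* gate 5 were higher and 1 lower. *EPCAM* was at 295 and 309 CPM in the *POU5F1* gate and 60.8 and 57.6 in the *COL3A1* gate (log2 -1.97 ± 0.09 in the latter). The matriptase gene *ST14* (-1.91 ± 0.09) and its inhibitor gene *SPINT2* (-1.99 ± 0.10) were lower in the *COL3A1* gate.

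Of 12 epithelial transcription factors, 10 were higher in the *GABRP* gate and 0 lower, and 11 were lower in the *COL3A1* gate and 1 higher, the latter being *CDX2* (log2 3.47 ± 0.27) at 4.0 and 6.6 CPM. *ELF3* was higher in the *GABRP* gate (3.05 ± 0.10) and in *GATA3*-positive cells (1.89 ± 0.12). *OVOL2* was higher in the *POU5F1* gate (1.71 ± 0.10) and lower in its *GATA3*-positive cells (-1.30 ± 0.16). *GRHL3* was higher in the *CRABP1* gate (2.60 ± 0.15, 48.2 and 64.7 CPM), the reverse of 8 other factors of the list there.

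Repressors known to act on epithelial junction genes made a list of 6. All 6 were higher in the *COL3A1* gate and 4 in the *CRABP1* gate, where *SNAI2* was lower (log2 -0.96 ± 0.33, adjusted p = 0.0341), while 5 were lower in the *POU5F1* gate, 5 in the *GABRP* gate and 6 in the *TP63* gate. *TWIST1* was at 608 and 633 CPM in the *COL3A1* gate (log2 5.92 ± 0.25) and *SNAI2* at 104 and 87.5 (4.86 ± 0.16). *ZEB2* was at 184 and 167 CPM in the *CRABP1* gate (3.76 ± 0.08) and 102 and 115 in the *COL3A1* gate (3.17 ± 0.08), and it was lower in *GATA3*-positive cells (-3.33 ± 0.19). Though called lower in the *POU5F1* gate against the mean of the others (-0.58 ± 0.09), *ZEB2* was higher there than in the *GABRP* (1.93 ± 0.14) and *TP63* (2.21 ± 0.13) gates. *SNAI2* was lower in the *POU5F1* gate than in both (-1.04 ± 0.33 and -1.03 ± 0.30). *ZEB1* was at 22.4 and 16.0 CPM in the *CRABP1* gate (3.24 ± 0.15) and 21.7 and 21.0 in the *COL3A1* gate (3.73 ± 0.13).

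As a description only, the genes most like each member were ranked by Pearson's r of log2(CPM + 1) over the 10 sums, which share 2 libraries. For *CLDN10* these were *FBP1* (0.990), *KCNK13* (0.989) and *IGSF5* (0.983). For *CLDN7* they were *LLGL2* (0.992), *ST14* (0.992) and *HTATIP2* (0.989), for *OCLN* *HOOK1* (0.994), *AP1M2* (0.992) and *RAB40C* (0.988), and for *CLDN4* *TMEM30A* (0.997), *TLCD1* (0.990) and *PPL* (0.989). Among the members themselves *CLDN7* and *OCLN* were most alike (0.985) and *CLDN10* and *CLDN4* least (0.179).

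In the pESCs from which blastoids are made, levels are FPKM, that is fragments scaled for exon length and library size, summed over the transcripts of a symbol. These values are divided by length and can be compared between genes. The 3 columns, IVFP25, PA_4P7 and PAP25, could not be tied to a numbered library and are treated as 3 unnumbered pESC samples. Their names differ, 1 beginning with IVF and the others with PA, and end in P25 or P7. The study uses PA for parthenogenetic and IVF for in vitro fertilised embryos, and neither labels nor methods say what the column names mean, so the columns may differ in origin or passage. *CLDN6* was the highest member, at 340, 267 and 242 FPKM in that order (283 ± 50.7, SD, n = 3), above 98.9% of the symbols with a value above 0, on average over the columns. *F11R* was at 149, 137 and 141 FPKM, *CLDN7* at 149, 109 and 99.6, and *TJP1* at 49.9, 55.9 and 53.0. *CLDN3* was the most uneven, at 163 FPKM in IVFP25 and 52.5 and 70.2 in the others, followed in level by *CLDN4* at 85.2, 42.8 and 63.5. *OCLN* was at 30.0, 24.3 and 31.6 FPKM.

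*CLDN10*, so high in the *POU5F1* gate, was next to last of the 9 in pESCs at 20.4, 17.9 and 29.3 FPKM, and *CGN* was last at 14.5, 15.2 and 26.7. Of the 9 members, 5 were highest in IVFP25, 1 in PA_4P7 and 3 in PAP25, namely *CLDN10*, *CGN* and *OCLN*. PAP25 stood apart in hypoblast markers. There 7 of 8 hypoblast markers had their highest value, the other, *TTR*, being listed at 0 in every column, and the 8 summed to 469 FPKM against 66.3 in IVFP25 and 65.6 in PA_4P7. *SOX17* was at 1.73, 1.82 and 26.1 FPKM and *FOXA2* at 13.2, 15.5 and 81.8. The part of such cells in the *CLDN10* and *CGN* values was not tested. FPKM of pESCs and CPM of blastoid cells come from different chemistries and were not compared by a test. In bulk RNA, fewer cells with a transcript and less of it per cell cannot be told apart. All *CLDN10* signal was assigned to 1 transcript of 5 exons (NM_001243444.1, chr11:65121627-65145002), and the 2 longer transcripts that start at 65027706 were listed at 0. *CLDN6* came to 99.97% from 1 transcript, whereas *CLDN4* was assigned to 3 transcripts unevenly between columns. XM_005661969.2 was at 75.2, 0 and 14.7 FPKM, NM_001161637.1 at 9.95, 6.02 and 48.8, and XM_021085910.1 at 0, 36.7 and 0, so no transcript led in every column.

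**Figure D5:**
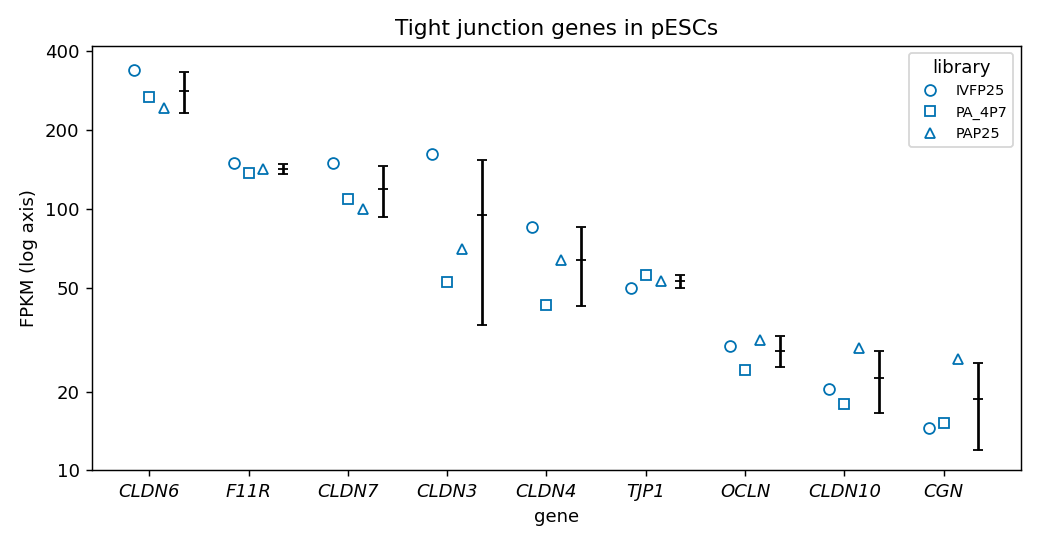
FPKM (logarithmic axis) of the 9 genes in the 3 pESC columns, 1 symbol per column, with the mean and SD beside them. *CLDN6* is highest at 242 to 340 FPKM, *CLDN10* (17.9 to 29.3) and *CGN* (14.5 to 26.7) are lowest, and *CLDN3* has the widest spread.

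Of the 17 other claudins found in the pESC table, 3 were at 1 FPKM or more in every column: *CLDN9* (24.4, 21.8 and 15.8), *CLDN11* (7.13, 7.79 and 5.95) and *CLDN12* (6.10, 5.28 and 4.94). A further 12 were below 1 in every column, 4 of them listed at 0 throughout. At least 1 FPKM in every column was reached by 37.0% of the 29886 symbols. It was reached by 8 of 11 other membrane genes, 25 of 27 plaque genes and all 6 partners and proteases, *EPCAM* being at 159, 169 and 141. It was reached by 8 of 12 epithelial factors and by 2 of 6 repressors.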

How the data were processed

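Single-cell RNA of 2 blastoid libraries (289452283 and 302211552 UMIs) and bulk RNA of 3 pESC libraries were analysed. The authors mapped the 10x reads with Cell Ranger 7.1.0 to susScr11 and deposited raw UMI counts per gene and barcode, including empty droplets. For bulk RNA the authors deposited FPKM per transcript (Trim Galore 0.6.4, HISAT2 2.2.1, StringTie 2.2.1). Depth behind the FPKM values is unknown, and they were only described.

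Counts were summed per gate and library and tested with edgeR 4.0.16 (quasi-likelihood, TMM, filterByExpr, R 4.3.3), with all 10 sums in 1 fit and each gate against the mean of the other 4. The *GATA3* and *TAC3* splits were fitted on their own 4 sums. P-values were adjusted by Benjamini-Hochberg over all genes tested, and a call is an adjusted p under 0.05. The edgeR fit of the 10 sums was also run on simulated counts, whose outcome is not reported here. In them a small part of the genes was changed, in the *POU5F1* gate alone, and library pairing was left out. Such counts cannot show how the fit behaves where many genes differ between all gates. Scrublet (scanpy 1.11.5) marked 1 cell in each library by its own threshold, so doublets were kept, and an alternative removed the 434 and 535 highest-scoring cells. Other alternatives were DESeq2 1.42.0, relative log expression factors, library totals, no filter on low counts, other gate thresholds, a mitochondrial limit, removal of free RNA, and leaving out each sum.

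Gates of the same library came from the same cell suspension, so library number pairs the sums. The main fits left this pairing out, and a further alternative, the replicate block, added library as a term. Library deviations correlated between gates at 0.0701 to 0.214 (median 0.132, 10 pairs of gates, 17826 genes). All 9 members were named in each comparison, and from each other list at most the 4 genes with the largest absolute log2 fold change among those called; some of these are not reported here. *CLDN12* in the *POU5F1* gate and *SNAI2* in the *CRABP1* gate were added after their values were seen. Members and lists were chosen with earlier results of these data known.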

Additional observations from a re-analysis of the deposited data

How the results depend on the processing

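Of 44 member calls in the 7 contrasts, 34 kept their direction and their call under every alternative that gave a test. With gates at 1 times the empty-droplet level 4 members were called in the *CRABP1* gate instead of 7. At 4 times, 3 were called for *GATA3* (5 in the report), where all-gene calls were 5131 at 1 times and 1135 at 4 times instead of 3299. These counts come from groups of unlike size, with 584 and 660 *GATA3*-positive cells at 1 times and 26 and 12 at 4 times. For *TAC3* (1186 genes and 1 member) genes called were 758 with DESeq2, 1791 with no filter on low counts, 3830 at 1 times, 630 at 4 times and 1869 without doublets, and members called were 6 at 1 times and 2 with library totals, no filter, 4 times, cells of several gates assigned, or doublets removed. The replicate block gave 8 members for *GATA3*, and 3 members and 2122 genes for *TAC3*; it moved no other count by over 1.5 times and lost no member call. Leaving out 1 sum or library gave 4492 to 7166 genes for the *TP63* gate, 2168 to 3326 for *GATA3*, and 1 to 2 members for *TAC3*.

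Directions turned as follows, in log2. With library totals *TJP1* was at 0.16 (*CRABP1*) and -0.064 (*GABRP*) against the other gates, 0.038 for *POU5F1* less *TP63* and 0.18 for *CRABP1* less *GABRP*; *F11R* was at 0.16 for *CRABP1* less *GABRP*, *CLDN3* at -0.037 for *GABRP* less *TP63*, *CLDN6* at 0.067 and *CLDN7* at 0.0087 for *POU5F1* less *GABRP*, *OCLN* at 0.051 for *POU5F1* less *TP63*, and *CLDN7* at -0.051 for *TAC3*. At 1 times, *CLDN4* (0.025) and *CLDN6* (0.022) in the *CRABP1* gate turned, as did *CGN* in the *TP63* gate (0.017), *OCLN* for *POU5F1* less *TP63* (0.011), and *CLDN10* for *GABRP* less *TP63* (-0.0027) and *CRABP1* less *COL3A1* (0.29, called). At 4 times *F11R* (-0.017) and *CLDN7* (-0.027) turned for *TAC3*, *CGN* (0.14) and *CLDN6* (-0.0053) in the *TP63* gate and *CLDN3* (-0.10) in the *POU5F1* gate. With cells of several gates assigned, the turned values were *F11R* -0.0020 and *CLDN7* -0.031 for *TAC3*, *CGN* 0.088 in the *TP63* gate, *CLDN3* -0.0015 in the *POU5F1* gate, *TJP1* 0.0036 for *POU5F1* less *TP63* and *CLDN3* -0.067 for *CRABP1* less *COL3A1*. Without doublets *CGN* was at 0.080 in the *TP63* gate and *CLDN10* at 0.092 in the *GABRP* gate. *CGN* there was also at 0.0055 with no filter and 0.036 with free RNA taken off. *CLDN7* for *TAC3* was at -0.0080 with no filter. *CLDN6* in the *TP63* gate was at -0.010 with DESeq2, -0.010 with relative log expression and -0.029 at a 5-UMI gate, and *OCLN* for *POU5F1* less *TP63* at 0.0044, 0.0044 and, at a 2-UMI gate, 0.0013. Apart from the *CRABP1* calls of *CLDN4* and *CLDN6* and the *GABRP* call of *TJP1*, and the pair differences of *CLDN10*, these values had not been called in the report.

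Leaving out 1 sum or library, values that crossed 0 ranged over -0.12 to 0.0092 for *TJP1* in the *CRABP1* gate, -0.020 to 0.17 for *F11R* with *TAC3*, -0.057 to 0.040 for *CGN* in the *TP63* gate, -0.16 to 0.31 for *CLDN3* in the *POU5F1* gate, -0.034 to 0.079 for *CLDN6* in the *TP63* gate, -0.072 to 0.10 for *CLDN7* and -0.45 to 0.064 for *CLDN10* with *TAC3*, -0.044 to 0.028 for *OCLN* and -0.066 to 0.25 for *F11R* between *POU5F1* and *TP63*, and -0.20 to 0.30 for *CLDN3* between *CRABP1* and *COL3A1*. None of these had been called. The causes were not tested. With 2 libraries per gate, the spread is estimated from few values.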
